A study of Mus musculus with 20 samples.

Results

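A set of 10 genes was followed that encode proteins for taking up, binding and activating fatty acids in the liver: Cd36, Slc27a2, Slc27a5, Lpl, Vldlr, Fabp1, Fabp2, Fabp4, Acsl1 and Acsl5. They were chosen by name out of the 48440 genes of the liver count table, and all 10 had enough counts to be tested. When they were chosen, the rise of Cd36 with corticosterone and its fall with the antibody under corticosterone were already known from these libraries, as was the value of Acsl1 with corticosterone. These values are therefore given as a description, without a p-value. For Cd36, the group with both treatments against the group with neither, and the interaction, are described in the same way. Counts of called genes below that include these values are not evidence about the set.

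The study asked whether neutralizing acyl-CoA-binding protein (ACBP) limits the metabolic effects of excess glucocorticoid. RNA was sequenced from 20 livers of wild-type female C57BL/6J mice (C57BL/6 in the labels), 8 weeks old at the start and treated for 5 weeks, in 4 groups of 5. The Isotype + Vehicle group received an IgG2a control antibody and the vehicle of corticosterone. The Isotype + CORT group received the control antibody with corticosterone (CORT), the main glucocorticoid of rodents. The αACBP + Vehicle group received a monoclonal antibody against ACBP with vehicle, and the αACBP + CORT group received this antibody with CORT. Whole liver was sampled, so each value averages hepatocytes with the other cells of the organ.

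Long-chain fatty acids reach hepatocytes bound to albumin or as triglyceride in lipoproteins. Lipoprotein lipase frees fatty acids from triglyceride at the vessel wall, and the very-low-density lipoprotein receptor binds triglyceride-rich particles. CD36 and the fatty acid transport proteins of the SLC27 family favour entry into the cell. Small cytosolic fatty acid-binding proteins carry the lipid inside it, and long-chain acyl-CoA synthetases couple it to coenzyme A. ACBP then binds the resulting acyl-CoA esters. Several of these genes are known targets of the peroxisome proliferator-activated receptors (PPARs), nuclear receptors that fatty acids activate.

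The libraries held 14934926 to 20299999 counts on genes. Levels are in CPM, counts scaled to a common library size by TMM (trimmed means of M values) in edgeR. The lowest count of any of the 10 genes in any liver was 45, and together they took between 0.472% and 0.962% of the counts. The 7 hepatocyte markers, Alb among them, summed to between 43380 CPM (in an αACBP + Vehicle liver) and 149600 CPM (in an Isotype + CORT liver). The αACBP + Vehicle livers stood apart from the Isotype + Vehicle livers in clock genes. An index of 13 clock genes (mean log2 CPM of 8 genes high at the turn from light to dark minus that of 5 genes high at the turn from dark to light) ran from 2.23 to 4.49 in them, against -1.13 to 0.625 in Isotype + Vehicle livers. Isotype + CORT liver 5 (2.67) and αACBP + CORT liver 5 (2.77) also lay within the αACBP + Vehicle range of the index. With bulk RNA, fewer cells of a type and less RNA in each cell cannot be told apart, for any gene below.

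The 300 bases around the start site (250 before and 50 after) were at hand for 7 of the 10 genes, in 9 windows from RefSeq annotation of GRCm38.p6. They are shown for the 3 genes that changed between groups and for Fabp1, the one window of the 9 with a full receptor motif. Both strands were searched for a pair of AGGNCA half-sites 1 base apart (the direct repeat DR1, the layout that PPARs bind), and for the palindrome of GNACA and TGTNC 3 bases apart, to which the glucocorticoid receptor binds. Capitals mark the DR1 match.
Fabp1, chr6:71199629-71199928, plus strand: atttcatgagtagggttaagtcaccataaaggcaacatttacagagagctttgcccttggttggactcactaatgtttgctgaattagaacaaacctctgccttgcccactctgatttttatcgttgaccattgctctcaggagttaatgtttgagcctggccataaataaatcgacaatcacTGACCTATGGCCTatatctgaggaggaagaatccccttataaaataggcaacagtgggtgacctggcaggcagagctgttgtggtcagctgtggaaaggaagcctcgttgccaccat
Cd36, chr5:17835847-17836146, minus strand: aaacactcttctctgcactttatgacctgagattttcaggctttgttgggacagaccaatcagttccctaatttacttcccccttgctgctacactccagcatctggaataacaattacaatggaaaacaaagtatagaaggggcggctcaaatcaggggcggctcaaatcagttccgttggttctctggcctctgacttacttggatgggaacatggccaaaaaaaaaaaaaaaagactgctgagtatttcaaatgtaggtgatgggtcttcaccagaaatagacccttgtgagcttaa
Fabp2, chr3:122894822-122895121, plus strand: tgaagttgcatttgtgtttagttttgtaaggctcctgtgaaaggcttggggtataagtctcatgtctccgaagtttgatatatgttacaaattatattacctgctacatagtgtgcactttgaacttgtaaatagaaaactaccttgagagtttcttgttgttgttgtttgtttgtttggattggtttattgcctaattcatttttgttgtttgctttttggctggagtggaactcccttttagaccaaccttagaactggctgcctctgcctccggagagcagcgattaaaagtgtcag
Acsl5, chr19:55253119-55253418, plus strand: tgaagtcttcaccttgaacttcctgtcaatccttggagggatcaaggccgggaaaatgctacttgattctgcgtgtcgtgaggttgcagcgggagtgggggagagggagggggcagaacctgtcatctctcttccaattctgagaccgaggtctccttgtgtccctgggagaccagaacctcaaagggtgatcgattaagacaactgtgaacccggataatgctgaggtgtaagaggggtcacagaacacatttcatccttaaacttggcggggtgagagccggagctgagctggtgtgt
The DR1 letters of Fabp1 were on the minus strand, with the first base of the match at position -67 from the start site. Of all 32851 windows of this length 0.381% held these letters. The palindrome was in 0.475% of all windows and in none of the 9. The half-site TGTTCT was in windows of Acsl5, Fabp1 and Vldlr and in 19% of all windows, and the TATA box TATAAA was in the window of Fabp1 and in 13.6% of all windows. A match describes the letters and not binding.

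Between genes, levels were compared per kb of the canonical transcript. In Isotype + Vehicle livers, Fabp1 (liver fatty acid-binding protein) stood at 5545 ± 1166 CPM per kb (SD, n = 5), far above the other genes. The transporters Slc27a5 (306 ± 52.6) and Slc27a2 (299 ± 42.3) came next, with overlapping livers. Acsl1 (106 ± 5.38), Acsl5 (76.7 ± 11.96) and Fabp2 (43.8 ± 9.69) followed, without overlap between neighbours. Cd36 (11.1 ± 1.84), Lpl (10.6 ± 3.17) and Fabp4 (8.34 ± 3.40) overlapped with each other, and Vldlr was lowest at 1.95 ± 0.580 CPM per kb. With the union of all annotated exons as the length, the mean of Acsl1 (37.7 CPM per kb) came below those of Acsl5 (56.1) and Fabp2 (43.8). On that length Fabp4 lay below Vldlr in αACBP + Vehicle (1.602 against 2.148 CPM per kb) and αACBP + CORT livers (1.167 against 1.554). In Isotype + CORT livers, Cd36 (35.4 ± 14.7 CPM per kb), Acsl5 (48.5 ± 10.5) and Fabp2 (57.8 ± 17.6) overlapped.

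**Figure D1:**
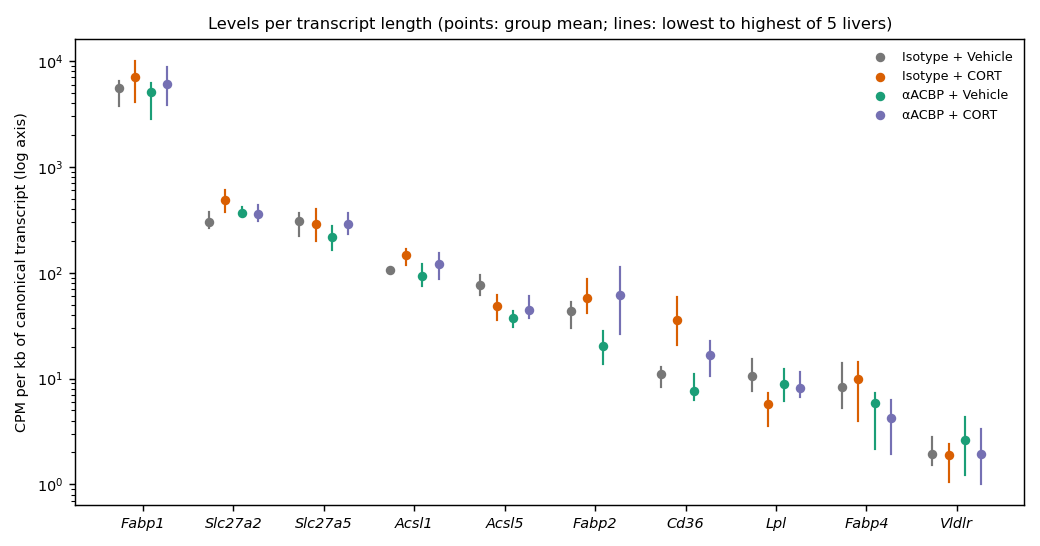
Levels of the 10 genes in CPM per kb of canonical transcript, on a log axis, by treatment group. Points are group means and lines run from the lowest to the highest of 5 livers. Fabp1 lay at 2807 CPM per kb or more in every liver, and Vldlr had the lowest mean in each of the 4 groups on this length.

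Changes were called with edgeR's quasi-likelihood test on 16071 genes, with p-values adjusted by Benjamini-Hochberg over all of them. A gene is called changed at an adjusted p of at most 0.05 with a log2 fold change of at least 1 in either direction. With CORT under isotype, 1 of the 10 genes changed (Cd36, a description) against 1.94% of all genes, and 4 passed the adjusted p alone, Cd36 among them, against 3.2%. With αACBP under CORT, 1 changed and 1 passed the adjusted p alone, in both cases Cd36 (a description), where 0.597% and 0.958% of all genes did. As Cd36 was chosen with these values known, its calls with CORT under isotype and with αACBP under CORT are no result about the set. With CORT under αACBP, 2 changed (Cd36 and Fabp2) against 0.212%, and the same 2 passed the adjusted p alone against 0.305%. With αACBP under vehicle, 2 changed (Fabp2 and Acsl5, both lower) against 1.3%, and these 2 passed the adjusted p alone against 5.14%.

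Between αACBP + CORT and Isotype + Vehicle, 0 of the 10 genes changed by edgeR. Of the 9 with a test, 2 had an unadjusted p under 0.05, 1 passed the adjusted p by DESeq2 and 0 changed by DESeq2. Of all genes 0.0684% changed and 0.0809% passed the adjusted p. For the interaction of CORT and αACBP, 0 of the 10 changed by edgeR. Of the 9 with a test, 4 had an unadjusted p under 0.05, 2 passed the adjusted p by DESeq2 and 0 changed by DESeq2, and 0.143% of all genes passed either limit. The comparisons share groups of livers and are not independent of each other.

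The groups of 5 livers did not overlap in CPM for 4 of the 10 genes with CORT under isotype, against 5.04% of all genes. These were Slc27a2 and Lpl and, as a description, Cd36 and Acsl1, whose values here were known when the genes were chosen. They did not overlap for 2 genes with αACBP under vehicle (Fabp2 and Acsl5), against 7.13% of all genes, and for 1 gene (Acsl5) between αACBP + CORT and Isotype + Vehicle, against 3.31%. All 10 genes overlapped with αACBP under CORT and with CORT under αACBP, where 3.22% and 2.74% of all genes did not. By sign, 6 of the 10 were higher with CORT under isotype (median log2 fold change 0.31, all genes 0.0022) and 7 were lower with αACBP under CORT (median -0.17, all genes 0.0106). These counts include the values known beforehand, Cd36 and Acsl1 in the first comparison and Cd36 in the second. With αACBP under vehicle 8 were lower (median -0.37, all genes -0.0194).

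**Figure D2:**
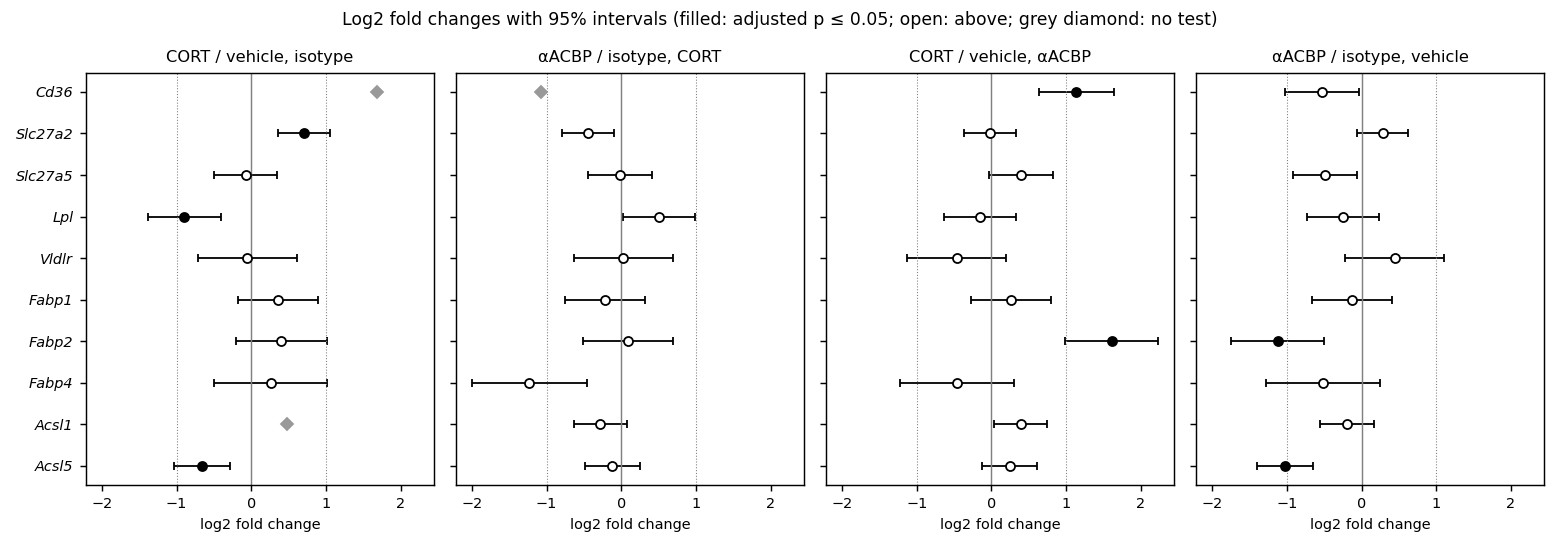
Log2 fold change of each gene in 4 comparisons, with its 95% interval from the fit over all genes. Filled points passed an adjusted p of 0.05, open points did not, and grey diamonds, drawn without an interval, are values known when the genes were chosen. Dotted lines mark -1 and 1. Cd36 lay at 1.68 and 1.14 with CORT under isotype and under αACBP, and Acsl5 at -0.66 with CORT under isotype and -1.03 with αACBP under vehicle.

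Cd36 encodes a scavenger receptor that binds long-chain fatty acids at the cell surface (ENSMUSG00000002944.15, minus strand of chromosome 5, from 17986432 to 18094067 in GRCm39, GENCODE M39). The submitters' notes name mm10 while the methods name GRCm39, and gene coordinates here are from GRCm39. In the Isotype + Vehicle livers Cd36 stood at 41.04, 42.6, 29.1, 35.6 and 45.3 CPM. The Isotype + CORT livers gave 99.5, 72.4, 130.2, 109.8 and 209 CPM, all above the highest control. The αACBP + Vehicle livers gave 27.96, 38.4, 23.2, 21.8 and 22.4 CPM and the αACBP + CORT livers 66.3, 79.2, 46.7, 64.4 and 37.3 CPM. With both treatments, 4 of the 5 livers lay above every Isotype + Vehicle liver and 4 of 5 lay below every Isotype + CORT liver. As a description, the log2 fold change was 1.68 (standard error, SE, 0.24) with CORT under isotype and -1.08 (0.23) with αACBP under CORT. It was 0.60 (0.23) between αACBP + CORT and Isotype + Vehicle, and -0.54 (0.33) for the interaction.

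The other 2 comparisons of Cd36 were tested. The values described above fix these 2 log2 fold changes, and each comparison shares livers with the values known beforehand. The tests are therefore not independent of how Cd36 was chosen. With CORT under αACBP, Cd36 rose from 26.8 ± 6.93 to 58.8 ± 16.7 CPM (SD, n = 5 in each group), a log2 fold change of 1.14 (SE 0.24, adjusted p = 0.0291 by edgeR). The groups overlapped through 1 liver of each, αACBP + Vehicle liver 2 and αACBP + CORT liver 5. This call ended when any of 7 of the 10 livers was left out (αACBP + Vehicle livers 1, 3, 4 and 5 and αACBP + CORT livers 1, 2 and 4), with edgeR adjusted p from 0.0549 to 0.125. Over all 10 omissions the log2 fold change ran from 1.0052 to 1.3007. With an index of clock genes as a covariate it was 0.98 and the call was lost (edgeR adjusted p = 1). That fit called 0 of all 16071 genes in this comparison, so the loss is not particular to Cd36. With αACBP under vehicle the log2 fold change of Cd36 was -0.53 (SE 0.23, edgeR adjusted p = 0.184), which did not pass.

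Over the 20 livers, the genes whose log2 CPM followed Cd36 most closely were Ephx2 (Pearson r = 0.944), Hsd17b4 (0.934), Cyp4a14 (0.927), Tmem56 (0.92) and Chpt1 (0.918). Ephx2 encodes soluble epoxide hydrolase, Hsd17b4 a peroxisomal enzyme of beta-oxidation, Cyp4a14 a fatty acid omega-hydroxylase and Chpt1 choline phosphotransferase. After the group means were taken out, r ran from 0.645 for Chpt1 to 0.817 for Hsd17b4. These are descriptions over livers that share treatment groups. Cyp4a14 averaged 389.5 CPM in Isotype + Vehicle, 1836 in Isotype + CORT, 203 in αACBP + Vehicle and 751 CPM in αACBP + CORT livers, the same order of groups as Cd36. It was picked by its correlation with Cd36 over these same livers, so the shared order is not a separate result.

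**Figure D3:**
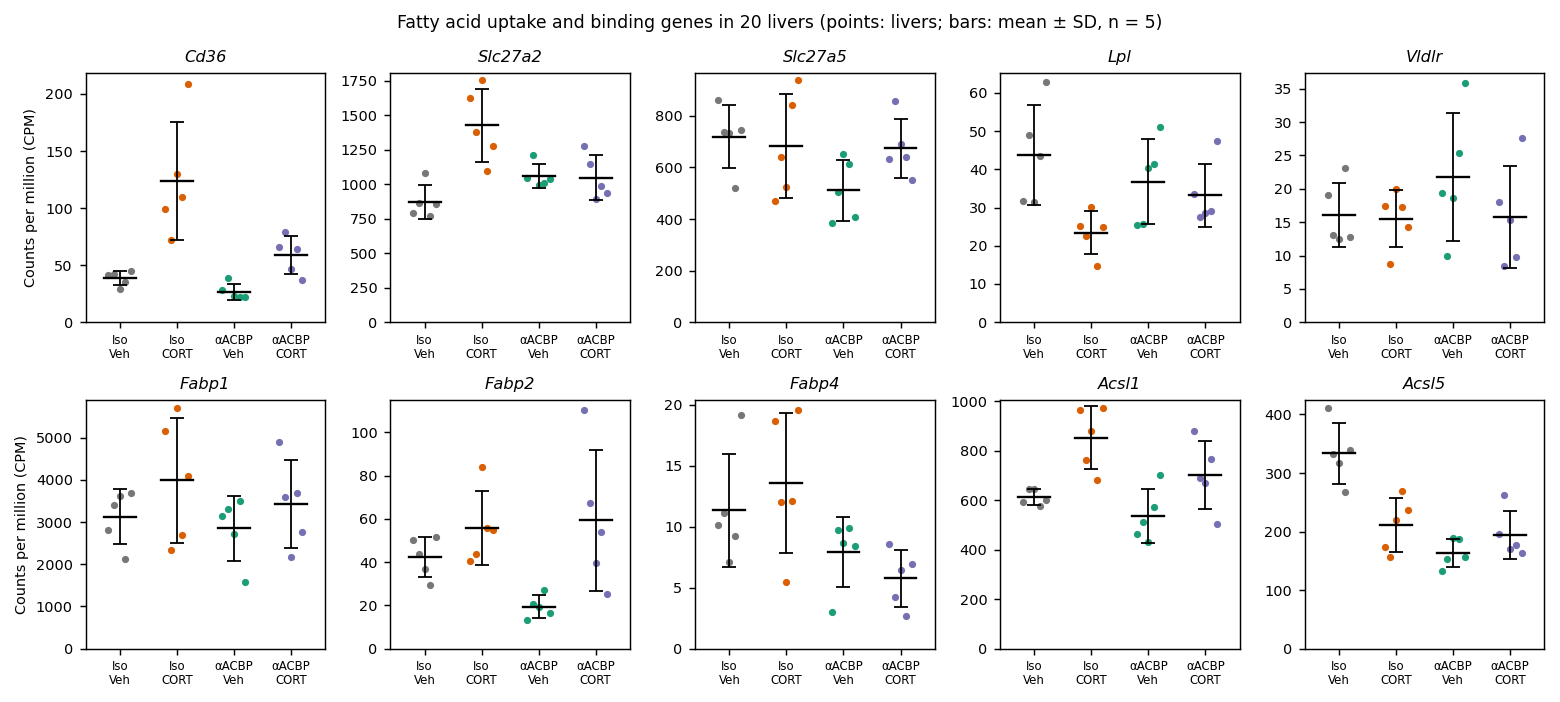
CPM of each gene in each of the 20 livers. Points are livers, horizontal bars are group means and whiskers are 1 SD (n = 5), and each panel has its own axis. For Cd36, every Isotype + CORT liver (72.4 CPM or more) lay above every Isotype + Vehicle liver (45.3 or less). For Fabp2, every αACBP + Vehicle liver (27.3 CPM or less) lay below every Isotype + Vehicle liver (29.2 or more).

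Slc27a2 and Slc27a5 encode FATP2 and FATP5, the main fatty acid transport proteins of hepatocytes, which also act as acyl-CoA synthetases. Slc27a2 (ENSMUSG00000027359.16, plus strand of chromosome 2, from 126394327 to 126430166 in GRCm39) gave 789.7, 865, 1082, 774 and 856 CPM in Isotype + Vehicle livers. The Isotype + CORT livers gave 1627, 1381, 1756, 1100 and 1279 CPM, all above the highest control. Slc27a2 rose by 0.71 on the log2 scale (1.64-fold, SE 0.16, adjusted p = 0.0136 by edgeR), less than the fold limit, and its adjusted p stayed at or under 0.05 with each of the 10 livers left out (0.0102 to 0.045). Under αACBP the level was 1061 ± 87.3 CPM with vehicle and 1049 ± 160.1 CPM with CORT (log2 fold change -0.02, 95% interval -0.36 to 0.33, edgeR adjusted p = 0.986). The difference between the CORT responses was -0.73 on the log2 scale (95% interval -1.22 to -0.24), which did not pass by edgeR (adjusted p = 0.191) and passed by DESeq2 (adjusted p = 0.0198). With αACBP under CORT the log2 fold change was -0.45 (adjusted p = 0.214 by edgeR and 0.0486 by DESeq2).

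Slc27a5 (ENSMUSG00000030382.15, minus strand of chromosome 7, from 12722273 to 12732137 in GRCm39) passed in no comparison by edgeR. Its means were 719.5 ± 124 CPM in Isotype + Vehicle, 683 ± 202 in Isotype + CORT, 512 ± 118 in αACBP + Vehicle and 675 ± 114 CPM in αACBP + CORT livers. The log2 fold change farthest from 0 was -0.49 with αACBP under vehicle (95% interval -0.92 to -0.06, edgeR adjusted p = 0.151). Within single livers, the CPM of Slc27a2 divided by that of Slc27a5 was 0.917 to 1.49 in Isotype + Vehicle and 1.304 to 3.47 in Isotype + CORT livers. It was 1.53 to 2.72 in αACBP + Vehicle and 1.298 to 2.02 in αACBP + CORT livers, and it was not tested. Of the 4 other fatty acid transport proteins 3 could be tested, and Slc27a1 alone passed, higher with αACBP under vehicle (18.2 ± 5.59 against 37.5 ± 7.51 CPM, log2 fold change 1.04, edgeR adjusted p = 0.0145).

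Lpl encodes lipoprotein lipase (ENSMUSG00000015568.15, plus strand of chromosome 8, from 69284603 to 69360100 in GRCm39), which adult hepatocytes make little of. It stood at 31.7, 48.97, 31.5, 43.4 and 62.7 CPM in Isotype + Vehicle livers. The Isotype + CORT livers gave 25.1, 22.5, 30.3, 14.7 and 24.8 CPM, all below the lowest control. The log2 fold change was -0.90 (SE 0.23, adjusted p = 0.0278 by edgeR), short of the fold limit. The adjusted p rose above 0.05 without Isotype + Vehicle liver 2 or 5 or Isotype + CORT liver 2 or 4 (0.0511 to 0.106), and was 0.051 in a fit of these 2 groups alone. Under αACBP, Lpl stood at 36.8 ± 11.1 CPM with vehicle and 33.2 ± 8.26 CPM with CORT (log2 fold change -0.15, 95% interval -0.63 to 0.33, edgeR adjusted p = 0.857). Neither the interaction (0.75, edgeR adjusted p = 0.375) nor αACBP against isotype under CORT (0.50, adjusted p = 0.358) passed.

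The 11 Kupffer cell and macrophage markers, like Lpl, were lower with CORT under isotype. Their summed level was 474 to 938 CPM in Isotype + Vehicle, 159 to 460.3 in Isotype + CORT, 607 to 997 in αACBP + Vehicle and 600.1 to 838 CPM in αACBP + CORT livers. This sum was highest in an αACBP + Vehicle liver. Clec4f, the marker with the highest mean, averaged 313 CPM in αACBP + Vehicle against 189 CPM in Isotype + Vehicle livers. By sign, 8 of the 11 markers were lower and 3 higher with αACBP under vehicle (median log2 fold change -0.32). The mean of Lpl was also lower there, at 36.8 against 43.7 CPM. With CORT under isotype all 11 were lower and 7 changed, among them the complement gene C1qa (log2 fold change -1.40, edgeR adjusted p = 0.00182) and the receptor gene Csf1r (-1.02, adjusted p = 0.00455). With αACBP under CORT all 11 were higher and 3 changed, namely Clec4f (1.42, edgeR adjusted p = 0.00275), Csf1r (1.07, adjusted p = 0.0072) and C1qa (1.24, adjusted p = 0.0116). Of all genes 1.94% changed with CORT under isotype and 0.597% with αACBP under CORT, and these markers were chosen with earlier results of these data known. No marker was at 0 in all livers of a group. The part of these cells in the values of Lpl, Cd36 and Fabp4, which macrophages also express, was not tested.

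Of the adipocyte markers, Cfd, Adipoq and Plin1 had their highest means in the Isotype + Vehicle livers, as did Lpl. Lipe, by far the most abundant marker, went the other way. Its mean was lowest in Isotype + Vehicle livers, at 22.3 ± 7.45 CPM. It was 24.6 ± 6.35 in Isotype + CORT, 35.6 ± 7.63 in αACBP + Vehicle and 27.9 ± 5.09 CPM in αACBP + CORT livers. In Isotype + Vehicle livers Cfd averaged 2.49 ± 2.17 CPM (above 0 in 4 of 5 livers), Adipoq 0.555 ± 0.453 CPM (4 of 5) and Plin1 0.363 ± 0.470 CPM (3 of 5). Adipoq and Plin1 were at 0 in every Isotype + CORT and αACBP + Vehicle liver and above 0 in 1 αACBP + CORT liver each. Cfd was above 0 in 2 Isotype + CORT and 2 αACBP + CORT livers, and at 0 in every αACBP + Vehicle liver, where it was called lower (edgeR adjusted p = 0.0286). Of the 6 markers Retn was above 0 in 3 Isotype + Vehicle livers and 1 Isotype + CORT liver, and Lep was at 0 in all 20 livers. The part of adipocytes in the values of Lpl was not tested.

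Vldlr, the very-low-density lipoprotein receptor gene (ENSMUSG00000024924.14, plus strand of chromosome 19, from 27193862 to 27231631 in GRCm39), passed in no comparison by edgeR. Its livers ran from 12.5 to 23.1 CPM in Isotype + Vehicle, 8.70 to 19.9 in Isotype + CORT, 10 to 35.9 in αACBP + Vehicle and 8.36 to 27.5 CPM in αACBP + CORT. The 95% interval of the CORT effect under isotype was -0.72 to 0.62 on the log2 scale. Of 9 other genes of uptake and lipoprotein receptors 8 could be tested. Lrp1, an endocytic receptor for lipoprotein remnants, alone passed the adjusted p, higher with CORT under isotype (log2 fold change 0.59, edgeR adjusted p = 0.0344) and with αACBP under vehicle (0.75, adjusted p = 0.00788).

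Fabp1 (ENSMUSG00000054422.7, plus strand of chromosome 6, from 71176809 to 71182016 in GRCm39) passed in no comparison by edgeR. Its livers ran from 2126 to 3680 CPM in Isotype + Vehicle, 2327 to 5703 in Isotype + CORT, 1583 to 3498 in αACBP + Vehicle and 2173 to 4912 CPM in αACBP + CORT. With CORT under isotype the log2 fold change was 0.35, with a 95% interval of -0.18 to 0.89 (edgeR adjusted p = 0.578).

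Fabp2 encodes the intestinal fatty acid-binding protein (ENSMUSG00000023057.5, plus strand of chromosome 3, from 122688721 to 122693155 in GRCm39). The Isotype + Vehicle livers gave 50.1, 43.6, 36.8, 29.2 and 51.6 CPM and the Isotype + CORT livers 40.6, 43.8, 83.8, 55.8 and 55 CPM, with a log2 fold change of 0.40 (SE 0.29, edgeR adjusted p = 0.579). The αACBP + Vehicle livers gave 13.3, 20.8, 19.1, 27.3 and 16.4 CPM, all below every isotype liver. The αACBP + CORT livers had the widest spread, at 110.4, 67.2, 39.5, 54.1 and 25.3 CPM. Fabp2 fell by 1.12 on the log2 scale with αACBP under vehicle (SE 0.29, adjusted p = 0.0278 by edgeR). It rose by 1.61 with CORT under αACBP (SE 0.29, adjusted p = 0.0154 by edgeR). The interaction was 1.21 (95% interval 0.35 to 2.07, edgeR adjusted p = 0.233) and did not pass, nor did αACBP under CORT (0.09, 95% interval -0.52 to 0.69, adjusted p = 0.966).

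Both calls for Fabp2 were close to the limit. The fall ended without any of 6 of the 10 livers (Isotype + Vehicle livers 1, 2 and 5 and αACBP + Vehicle livers 1, 3 and 5, edgeR adjusted p from 0.0503 to 0.0867), and with the replicate number as a block (adjusted p = 0.0559). The rise ended without any of 5 of the 10 (αACBP + Vehicle livers 1, 3 and 5 and αACBP + CORT livers 1 and 2, edgeR adjusted p from 0.0523 to 0.0821), and in a fit of the 2 groups alone (adjusted p = 0.0717). The clock index had means of -0.018 in Isotype + Vehicle, 0.947 in Isotype + CORT, 3.66 in αACBP + Vehicle and -0.293 in αACBP + CORT livers. The group with the highest mean index had the lowest mean of Fabp2. Both means were higher in Isotype + CORT than in Isotype + Vehicle livers. The αACBP + CORT liver with the lowest Fabp2 (liver 5) had the highest index of its group, 2.77. Isotype + CORT liver 5 had an index of 2.67 and 55 CPM of Fabp2, within the range of its group. With the index as a covariate the log2 fold change of Fabp2 was -0.14 with αACBP under vehicle and 0.46 with CORT under αACBP. That edgeR fit called 0 of all 16071 genes in either comparison, with 653 and 308 at an unadjusted p under 0.05, and was not run with another tool. The index and the group cannot be told apart in the αACBP + Vehicle livers.

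Among 7 markers of intestinal epithelium, where Fabp2 is known to be abundant, Cdx1, Cdx2 and Sis were at 0 in all 20 livers. The summed level was 30.01 to 89.7 CPM in Isotype + Vehicle, 106 to 219 in Isotype + CORT, 72.8 to 175 in αACBP + Vehicle and 88.2 to 144 CPM in αACBP + CORT livers, nearly all of it Lgals4. Lgals4 was higher with CORT under isotype (log2 fold change 1.53, edgeR adjusted p = 0.00216) and with αACBP under vehicle (1.07, edgeR adjusted p = 0.0264), where Fabp2 was lower. The part of intestinal epithelium in the values of Fabp2 was not tested.

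Fabp4, the adipocyte and macrophage fatty acid-binding protein gene (ENSMUSG00000062515.3, minus strand of chromosome 3, from 10268785 to 10273737 in GRCm39), had its lowest mean with both treatments. The αACBP + CORT livers gave 8.59, 4.25, 6.43, 2.66 and 6.97 CPM and the Isotype + CORT livers 18.7, 12.1, 5.44, 12.1 and 19.6 CPM. The means were 11.3 ± 4.62 CPM in Isotype + Vehicle and 7.93 ± 2.85 CPM in αACBP + Vehicle livers. Isotype + CORT liver 3 alone lay within the range of the antibody group. The log2 fold change with αACBP under CORT was -1.23 (SE 0.36, adjusted p = 0.102 by edgeR), which did not pass. It passed without Isotype + CORT liver 3 (-1.43, edgeR adjusted p = 0.0272) and by DESeq2 (-1.24, adjusted p = 0.0471). The summed level of the 6 adipocyte markers was 15.6 to 30.6 CPM in Isotype + CORT and 21.99 to 35.9 CPM in αACBP + CORT livers, nearly all of it Lipe, which other tissues also express, and its part in the values of Fabp4 was not tested.

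Of the 7 other fatty acid-binding proteins only 3 could be tested, and Fabp5 alone passed. It ran from 47.6 to 109 CPM in Isotype + Vehicle and 5.99 to 9.82 CPM in Isotype + CORT livers, a log2 fold change of -3.25 (SE 0.51, edgeR adjusted p = 0.00182). Under αACBP it stood at 59.1 ± 16.3 CPM with vehicle and 22.2 ± 24.04 CPM with CORT, where 1 liver reached 64.4 CPM and the other 4 lay at or under 19.7 CPM (log2 fold change -1.41, edgeR adjusted p = 0.212). Copies of Fabp5 elsewhere in the genome were not searched for.

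Acsl1 and Acsl5 encode long-chain acyl-CoA synthetases, enzymes whose products ACBP binds. Acsl1 (ENSMUSG00000018796.13, plus strand of chromosome 8, from 46924063 to 46990145 in GRCm39) gave 591, 644, 647, 579 and 602 CPM in Isotype + Vehicle livers and 965, 764, 881, 683 and 973 CPM in Isotype + CORT livers. As a description, this was a log2 fold change of 0.48 (SE 0.17), and the groups did not overlap. Under αACBP, Acsl1 stood at 536 ± 108 CPM with vehicle and 702 ± 138 CPM with CORT. Its log2 fold change of 0.39 (SE 0.17) did not pass by edgeR (adjusted p = 0.325) and passed by limma voom (0.54, adjusted p = 0.0323). With the antibody its log2 fold change was -0.28 under CORT (95% interval -0.64 to 0.08) and -0.19 under vehicle (95% interval -0.55 to 0.17), and neither passed by edgeR.

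Acsl5 (ENSMUSG00000024981.5, plus strand of chromosome 19, from 55240267 to 55286153 in GRCm39) was highest in the controls. The Isotype + Vehicle livers gave 412, 332, 317, 267 and 339.9 CPM and the Isotype + CORT livers 173, 157, 219, 269 and 237 CPM. The αACBP + Vehicle livers gave 133, 154, 188, 187 and 157 CPM and the αACBP + CORT livers 197, 263, 170.2, 176 and 163 CPM. Isotype + CORT liver 4 was the single treated liver above the lowest control. Acsl5 fell by 1.03 on the log2 scale with αACBP under vehicle (0.490-fold of the control, SE 0.18, adjusted p = 0.00238 by edgeR). The adjusted p stayed between 0.003 and 0.0148 with each of the 10 livers left out. The fold change then ran from -1.10 to -0.94, and it missed the fold limit without Isotype + Vehicle liver 1 or αACBP + Vehicle liver 1.

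With CORT under isotype, Acsl5 fell by 0.66 on the log2 scale (SE 0.18, adjusted p = 0.0333 by edgeR). This missed 0.05 without any of 6 of the 10 livers (Isotype + Vehicle livers 1, 2, 3 and 5 and Isotype + CORT livers 1 and 2, edgeR adjusted p from 0.0503 to 0.088), and with the replicate number as a block (adjusted p = 0.0645). Between αACBP + CORT and Isotype + Vehicle the log2 fold change was -0.78 (SE 0.18, adjusted p = 0.0782 by edgeR), which passed by DESeq2 and limma voom (adjusted p = 0.00107 and 0.000525). With CORT under αACBP it was 0.24 (95% interval -0.13 to 0.62, edgeR adjusted p = 0.606). The interaction was 0.91 (95% interval 0.38 to 1.43, adjusted p = 0.105 by edgeR and 0.0197 by DESeq2).

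Of the canonical Acsl5 transcript 42.8% lies opposite exons of Zdhhc6, and whether reads were counted by strand is not given in the sources used here. The study's methods name HTSeq in union mode, with non-unique features kept in the counts. Zdhhc6 stood at 43.1 ± 13.9 CPM in Isotype + Vehicle, 62.7 ± 1.43 in Isotype + CORT, 36.6 ± 6.31 in αACBP + Vehicle and 49.8 ± 9.85 CPM in αACBP + CORT livers. The part of Zdhhc6 reads in the counts of Acsl5 was not tested. Of the Fabp2 transcript 22.9% lies opposite 4933405D12Rik, which had at most 22 counts in any liver. With the clock index as a covariate, the log2 fold change of Acsl5 with αACBP under vehicle was -0.74 and the call was lost (edgeR adjusted p = 0.999). That fit called 0 of all 16071 genes in this comparison, so the loss is not particular to Acsl5. Within single livers, the CPM of Acsl1 divided by that of Acsl5 was 1.44 to 2.17 in Isotype + Vehicle and 2.54 to 5.58 in Isotype + CORT livers. It was 2.29 to 4.49 in αACBP + Vehicle and 2.62 to 4.48 in αACBP + CORT livers. Every treated liver had a higher ratio than every control, and the ratio was not tested.

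**Figure D4:**
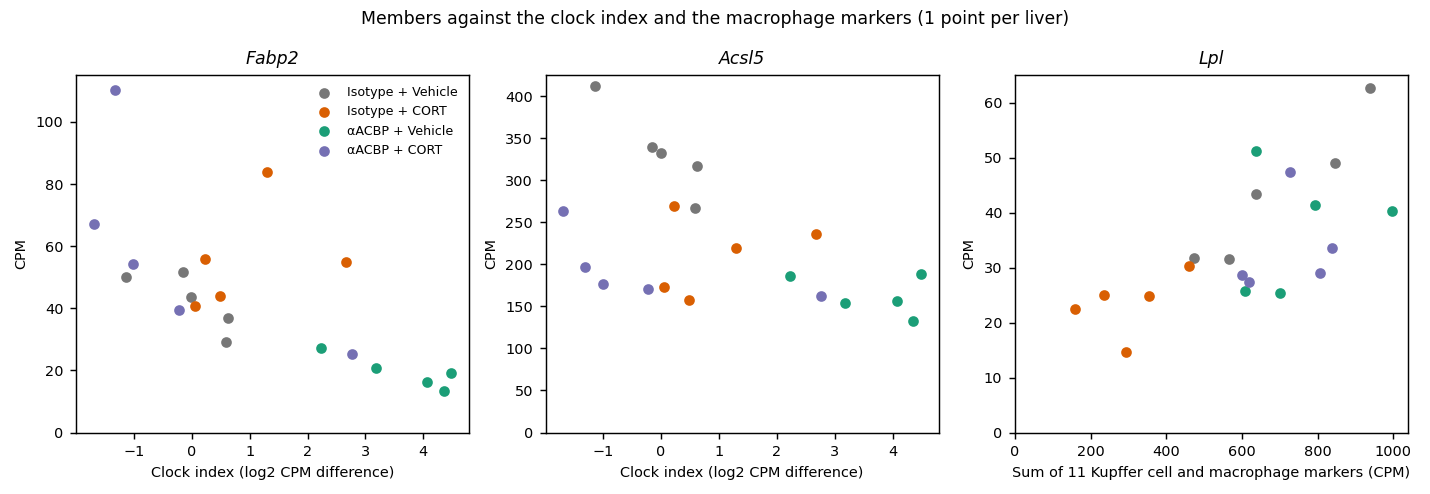
CPM of Fabp2 and Acsl5 against the clock index, and of Lpl against the summed CPM of 11 Kupffer cell and macrophage markers, with 1 point per liver coloured by group. The αACBP + Vehicle livers sit at an index of 2.23 or more and at 27.3 CPM of Fabp2 or less. The Isotype + CORT livers sit at 460.3 CPM of the macrophage markers or less and at 30.3 CPM of Lpl or less.

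Of 10 other acyl-CoA synthetases 8 could be tested, and 2 changed with CORT under isotype, both lower. Acss2, which makes acetyl-CoA from acetate, ran from 523 to 622 CPM in Isotype + Vehicle and 110.2 to 217 CPM in Isotype + CORT livers (log2 fold change -1.88, SE 0.31, edgeR adjusted p = 0.00155). It was also lower in αACBP + CORT than in Isotype + Vehicle livers (-1.71, SE 0.31, edgeR adjusted p = 0.032). Acsbg1 was at 0 in every Isotype + CORT liver, where a count of 0 allows up to 0.205 CPM (3 counts in the smallest of these libraries after TMM scaling, counting error only). It ran from 0.428 to 2.13 CPM in Isotype + Vehicle livers (edgeR adjusted p = 0.0474).

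Among 13 nuclear receptors and regulators of these genes, Ppard and Nr1i3 passed the adjusted p. Ppard, which encodes PPARδ, changed in 5 of the 6 comparisons. It was lower with CORT under isotype (44.4 ± 21.4 against 9.14 ± 2.89 CPM, log2 fold change -2.28, SE 0.30, edgeR adjusted p = 0.000231). It was higher with CORT under αACBP (13.3 ± 2.34 against 32.7 ± 11.9 CPM, log2 fold change 1.29, SE 0.29, adjusted p = 0.0443 by edgeR). The interaction was 3.57 on the log2 scale (SE 0.41, edgeR adjusted p = 4.58e-05). Nr1i3, the xenobiotic receptor CAR, was higher with CORT under isotype (log2 fold change 0.95, edgeR adjusted p = 0.00155) and with αACBP under vehicle (0.63, adjusted p = 0.0274). Ppara, singled out after its values were seen, ran from 11.5 to 24.5 CPM in Isotype + Vehicle, 19.7 to 35.5 in Isotype + CORT, 7.72 to 20.98 in αACBP + Vehicle and 18.9 to 30.3 CPM in αACBP + CORT livers, and did not pass.

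**Figure D5:**
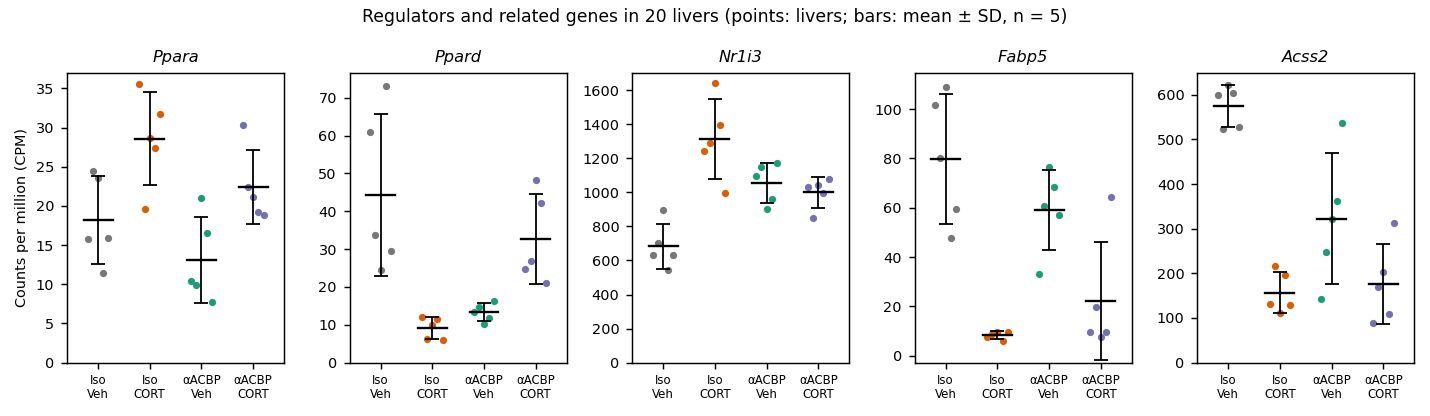
CPM in each of the 20 livers of the receptor genes Ppara, Ppard and Nr1i3 and of Fabp5 and Acss2. Points are livers, bars are means and whiskers are 1 SD (n = 5). Ppard was at or under 16.25 CPM in every Isotype + CORT and αACBP + Vehicle liver and at or above 21.1 CPM in the other 10.

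Of 24 genes known to respond to PPARα, 23 could be tested. With CORT under isotype 22 were higher (median log2 fold change 0.74) and 10 passed the adjusted p, among them the omega-hydroxylases Cyp4a10 (2.14, edgeR adjusted p = 0.000294) and Cyp4a31 (2.30, adjusted p = 0.00206) and the pantetheinase Vnn1 (2.08, adjusted p = 0.00392). With αACBP under CORT all 23 were lower (median -0.51) and 2 passed, Cyp4a10 (-1.33, edgeR adjusted p = 0.023) and the medium-chain acyl-CoA dehydrogenase gene Acadm (-0.62, adjusted p = 0.0453). With CORT under αACBP 22 were higher (median 0.58), and 0 of the 23 passed the adjusted p by edgeR, with 11 at an unadjusted p under 0.05 and 7 past the adjusted p by DESeq2. With αACBP under vehicle 15 were lower (median -0.28) and Ehhadh, a peroxisomal enzyme of beta-oxidation, passed (-1.04, edgeR adjusted p = 0.0114). Of all genes 3.2%, 0.958%, 0.305% and 5.14% passed the adjusted p in these 4 comparisons in turn, and 50.2%, 51%, 50.5% and 48.8% were higher. The list was chosen with earlier results of these data known, so its counts are not independent of them. The first 2 of these comparisons share the Isotype + CORT livers.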

How the data were processed

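Liver RNA of 20 mice was sequenced. The deposited table holds raw counts per gene, made by the authors with HISAT2 and HTSeq per the labels. The annotation build is named as mm10 by the labels and as GRCm39 by the study's methods. A median of 61.2% of each library's reads was not counted on a gene and stayed out of library sizes. Total counts ranged from 14934926 to 20299999.

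Groups were taken from the labels, with 5 livers each. In R 4.3.3, all 20 livers were fitted in 1 edgeR 4.0.16 quasi-likelihood model (TMM, filterByExpr, robust) for 6 contrasts, with Benjamini-Hochberg adjustment over 16071 genes. Recovery of known changes was tested on simulated data. DESeq2 1.42.0, limma voom 3.58.1, other scalings and filters, a clock covariate, a replicate block and leaving out each liver were alternatives. Same-numbered livers of different groups showed little correlation of their deviations from the group means over all tested genes (30 pairs, r from -0.139 to 0.138, 2 over 0.1). A pairing that affects few genes would not show in this check. Livers of a group correlated at 0.913 to 0.973. Each liver is taken as a separate mouse from the labels. The edgeR p-values set differences between groups against the spread between livers, moderated over all genes.

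The 10 genes and the related lists were chosen with earlier results of these data known. By rule, all 10 were named, with up to 4 genes per list and contrast past the adjusted p by smallest p, and the 5 genes best correlated with Cd36 (predicted and Rik symbols left out). Not every list is covered. Genes past the adjusted p in the lists of clock, glucocorticoid-responsive, stellate cell and capillary endothelial genes are not named. Ratios between genes and Ppara were added after values were seen. Of the table's identifiers 91.4% were found in GENCODE M39 without version. Promoter windows came from RefSeq (GRCm38.p6). Some results on genes related to lipoprotein lipase are not reported here.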

Additional observations from a re-analysis of the deposited data

Results flagged for a closer look

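Of 40 sets of 5 livers (10 genes in 4 groups), 2 held a liver that stood apart by Dixon's gap test, whose limit for 5 samples is 0.71, and chance flags about 1 in 20 sets. For Fabp4, the lowest αACBP + Vehicle liver stood at 2.957 CPM and the next at 8.44 CPM, a gap of 0.7956 of the group's range. For Slc27a2, the highest αACBP + Vehicle liver stood at 1212 CPM and the next at 1047 CPM, a gap of 0.756 of the range.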

How the results depend on the processing

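Of the log2 fold changes of the 10 genes under the alternatives other than leaving out a liver, 434 kept direction and side of the threshold, 17 reversed, 9 newly passed and 10 no longer passed. With a liver left out, these were 639, 32, 1 and 28. The cause was not tested.

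The number of the 10 genes changed with CORT under isotype became 4 without the fold limit and 2 with the clock covariate. With αACBP under CORT it became 2 by DESeq2, 0 in a fit of the compared groups alone and 0 by limma voom. With CORT under αACBP it became 1 in a fit of the compared groups alone and 0 with the clock covariate. With αACBP under vehicle it became 1 with library sizes lacking the 20 most abundant genes, 1 with the replicate block and 0 with the clock covariate. With a liver left out, it ran from 1 to 2 with CORT under isotype, and from 0 to 2 with αACBP under CORT, with CORT under αACBP and with αACBP under vehicle, and stayed at 0 for αACBP + CORT against Isotype + Vehicle and for the interaction. The 0 with αACBP under CORT came without Isotype + CORT liver 5 or αACBP + CORT liver 3 or 5. The counts with CORT under isotype and with αACBP under CORT include the Cd36 values known beforehand.

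The replicate block ended 2 calls, Acsl5 with CORT under isotype (log2 fold change -0.6688, edgeR adjusted p = 0.0645) and Fabp2 with αACBP under vehicle (-1.1242, edgeR adjusted p = 0.0559), and no other of the 10 genes. With the block, Vldlr reversed with αACBP under CORT (-0.0258).

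With the clock covariate, log2 fold changes reversed for Fabp2 with αACBP under CORT (-0.4044) and in the interaction (-0.2665). They also reversed with CORT under αACBP for Fabp1 (-0.0842), Lpl (0.3036), Vldlr (0.1208) and Acsl5 (-0.0672), with αACBP under vehicle for Fabp1 (0.1784), Vldlr (-0.174) and Acsl1 (0.049), and for Vldlr in the interaction (0.3306). By limma voom they reversed for Vldlr with CORT under isotype (0.1254) and αACBP under CORT (-0.2618), Slc27a2 with CORT under αACBP (0.0115), and Fabp1 (0.0681) and Acsl1 (0.1478) in the interaction. Slc27a5 reversed with αACBP under CORT (0.0211) with library sizes lacking the 20 most abundant genes. None of these values passed the test.

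With a liver left out, signs turned for Acsl1 in the interaction (-0.18 to 0.0512), Fabp1 in the interaction (-0.2502 to 0.0772), αACBP + CORT against Isotype + Vehicle (-0.0315 to 0.2595) and αACBP under vehicle (-0.2455 to 0.0124), and Fabp2 with αACBP under CORT (-0.2621 to 0.2812). They also turned for Slc27a2 with CORT under αACBP (-0.0956 to 0.0373), Slc27a5 with CORT under isotype (-0.2213 to 0.0328) and αACBP under CORT (-0.1257 to 0.1224), and Vldlr with CORT under isotype (-0.1584 to 0.1141), αACBP + CORT against Isotype + Vehicle (-0.3212 to 0.1418) and αACBP under CORT (-0.27 to 0.1875).

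The number of all genes changed with CORT under isotype was 527 by DESeq2 against 312 by edgeR. With αACBP under CORT it was 211 by DESeq2, 57 by limma voom and 27 in a fit of the compared groups alone, against 96. With CORT under αACBP it was 112 by DESeq2, 155 by limma voom and 0 with the clock covariate (308 at an unadjusted p under 0.05), against 34. With αACBP under vehicle it was 0 with the clock covariate (653 at an unadjusted p under 0.05), against 209. Between αACBP + CORT and Isotype + Vehicle it was 56 by DESeq2, 62 in a fit of the compared groups alone and 150 by limma voom, against 11. For the interaction it was 187 by DESeq2, 53 without the count filter, 49 by limma voom, 35 with DESeq2 size factors and 0 with the clock covariate (910 at an unadjusted p under 0.05), against 23. The median log2 fold change of all genes was 0.0331 for the interaction, 0.133 without the count filter and 0.13 by limma voom.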
